A study of Drosophila melanogaster with 8 samples.

Results

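The 166 genes described here were the odorant receptor (Or), gustatory receptor (Gr) and odorant-binding protein (Obp) genes of Drosophila melanogaster, taken by their symbols from a table of 14300 rows. They comprised 60 Or, 62 Gr and 44 Obp genes, each taken by its symbol alone. The question was which of these genes, mostly silent in a larval wing disc, gained reads when Myb was absent. The symbols were those of the deposited table, so odorant-binding genes listed there under older names, such as lush, fell outside the 3 families and were counted separately.

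Polyadenylated RNA was sequenced from wing discs, the larval precursors of the wing and notum, dissected from male larvae of the 3rd instar. There were 5 libraries of Myb mutant discs and 3 libraries of yw67 control discs. The mutant males carried the null allele MH107 on their single X chromosome, a deletion made by mobilizing a P-element that took out the start of Myb together with the non-essential neighbour AlkB. They were picked as the larvae without the GFP of the balancer, and such animals die before adulthood. The line had been outcrossed over several generations into the y w laboratory stock that served as the control, and the stock formula lists a white allele of its own beside the deletion. The labels did not settle what a library was. One text gave each library as a biological replicate of its own. By the descriptions of the single samples, however, the 3 control libraries were repeat preparations of 1 biological replicate, mutant library 1 belonged to a second one, and mutant libraries 2 to 5 shared another. Under those descriptions genotype and biological replicate cannot be told apart, and the p-values below measured the spread between libraries, which may be technical.

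Or genes encode membrane receptors of olfactory neurons, which work together with the shared co-receptor Orco. Gr genes encode receptors of taste neurons for sugars, bitter compounds and other ligands, and a pair of them, Gr21a and Gr63a, form the carbon dioxide receptor of the antenna. Obp genes encode small secreted proteins, many of them made by support cells of the sensory hairs and some of them found in tissues with no sensory role. Myb belongs to the dREAM (Myb-MuvB) complex, which activates genes of the cell cycle and represses others, and which has been reported to act on the carbon dioxide receptor genes in olfactory neurons.

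Library totals ran from 50562199 to 65322440 counts. Levels are given as CPM, the counts of a gene per 1000000 counts of its library after TMM scaling. The deletion showed in every mutant library: Myb fell from 301 ± 4.93 CPM in the control (SD, n = 3) to 5.78 ± 1.13 CPM in the mutant (n = 5), and AlkB had no count in the mutant. Of 12 wing disc markers all were detected, and their summed level was 1630 to 1960 CPM in control and 1890 to 1950 CPM in mutant libraries. Summed markers of fat body (7 genes) ranged from 75.6 to 5280 CPM without following genotype. Of 9 hemocyte markers 7 were called lower, against 17.5% of all tested genes, with a median log2 fold change of −3.79 over the list. The 6 markers CG6124 (eater), Hml, Pxn, CG8942 (NimC1), He and Sr-CI fell 13.5-fold to 40.6-fold, for example Hml from 60.7 to 1.82 CPM, whereas the collagen genes Cg25C (205 and 171 CPM) and vkg (141 and 137 CPM) made up most of the summed level of 563 to 632 CPM in control and 331 to 401 CPM in mutant libraries. In such bulk samples fewer cells of a type and less RNA per cell cannot be told apart.

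Most of the sensory genes stayed silent in both genotypes. No count was found in any of the 8 libraries for 94 of the 166 genes, or 56.6%, against 12.4% of all genes. These were 36 Or, 35 Gr and 23 Obp genes. Of the remaining 72, 46 had counts in both genotypes, 21 in the mutant only and 5 in the control only. Only 16 genes (3 Or, 5 Gr and 8 Obp) had enough counts to be tested, 9.64% of the 166 against 63.5% of all genes. Since these passed the filter on low counts, they do not stand for the 3 families. Some of the 94 genes without a count share exon bases with another gene on the same strand. Examples are Gr64b with Gr64c (100% of its exon bases) and Gr2a with futsch (75.9%). Because only unique counts were kept, reads of such genes may have been missed.

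The number of sensory genes with at least 1 count was alike in the libraries of both genotypes. It was 40, 38 and 31 in control libraries 1 to 3 and 41, 43, 40, 38 and 43 in mutant libraries 1 to 5. The mutant range overlapped the control range, and only control library 3 lay below all others. By family, Or genes with a count numbered 8 to 13 per control library and 8 to 16 per mutant library. Gr genes numbered 11 to 15 and 11 to 16, and Obp genes 12 to 14 and 13 to 17. Over all genes, the share with a count was 72.4% to 74.5% in control and 74.9% to 77.1% in mutant libraries. The 5 mutant libraries together held 1.76 times the counts of the 3 control libraries, which by itself gives more genes a chance of a first count in the mutant.

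**Figure D1:**
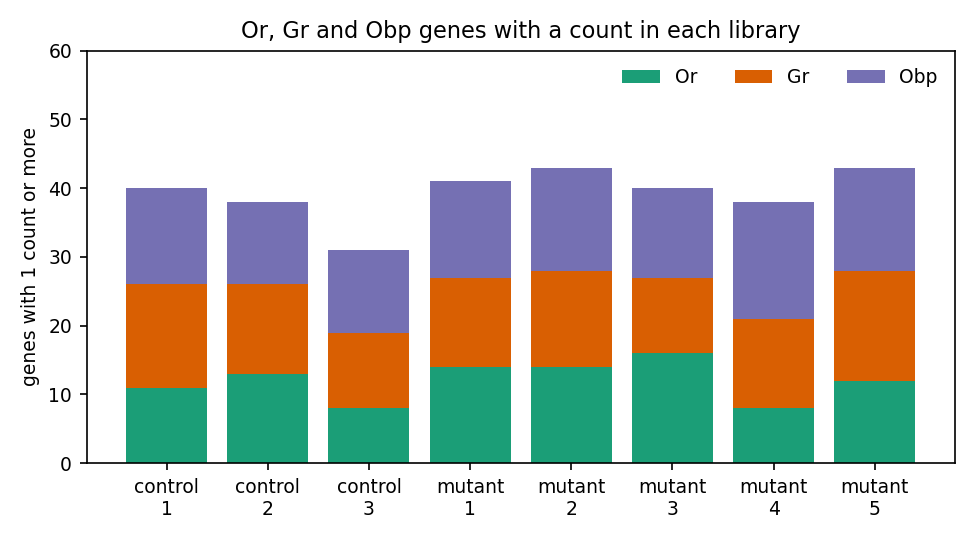
Number of Or, Gr and Obp genes with 1 count or more (vertical axis) in each of the 3 control and 5 Myb mutant libraries, stacked by family. The totals ran from 31 in control library 3 to 43 in mutant libraries 2 and 5.

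No sensory gene that was silent in the control reached a level that could be called. There were 115 genes with no count in any control library (43 Or, 44 Gr and 28 Obp). Of these, 21 (7 Or, 9 Gr and 5 Obp) had a count in the mutant, 18.3% against 37.2% of all genes with no control count. In 11 of the 21 the counts came from 1 mutant library, in 8 from 2 libraries and in 2 from 3 or 4 libraries. None had a count in all 5 mutant libraries, against 2.41% of all such genes, and none reached 10 counts over the mutant libraries, against 5.77%. The 21 genes shared 49 counts in all.

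The 3 cases nearest to a gain, picked after their values were seen, were small. Or42b, an antennal receptor for fruit esters, had the most counts with 5, of which 4 were in mutant library 1 and 1 in mutant library 5. Gr58c had 1 count in each of mutant libraries 1, 2, 4 and 5, and Or10a, a receptor for methyl salicylate, had 1 count in each of mutant libraries 1, 4 and 5. Or10a shares all of its annotated exon bases with Gr10a on the same strand, so reads of this pair may not have been told apart. A count of 0 over a group allowed a level of up to 0.0181 CPM (control) and 0.0103 CPM (mutant), and these floors of 3 counts cover counting error only. When the low-count filter was dropped, edgeR called 55 genes of the whole table that had no control count, with a median of 29 mutant counts and at least 9. DESeq2 called 54 such genes, with at least 17 mutant counts. The counts of all 21 sensory genes thus lay below those of every gene with no control count that these fits called.

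In the opposite direction, 99 sensory genes had no mutant count and 5 of them (5.05%) had a control count, against 16.3% of all genes with no mutant count. These were Gr93b with 3 counts, the bitter receptor subunit Gr33a and Or1a with 2 counts each, and Gr64e and Gr68a with 1 count each. They were named because so few genes fell in this class.

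With a wider definition of silence, a control mean under 0.1 CPM, 147 of the 166 genes were silent. None of the 147 passed the filter, so none could be called higher in the main fit. Over the whole genome, 2.29% of the genes silent by that definition were called higher. Those calls could come only from the silent genes that passed the filter, which by coincidence also numbered 166. The share called therefore cannot be compared between the sensory genes and all genes. With edgeR and no filter, none of the 147 rose at an unadjusted p under 0.05. The 94 genes without any count did not enter that fit. In it Gr58c, with 0 control and 4 mutant counts, had an unadjusted p of 0.0756 (edgeR), and Or42b, with 0 and 5, had 0.162. So few counts could hardly pass, so the result says little of whether such genes gained. The mutant mean of 1 of the 147, Gr77a, reached 0.1 CPM (from 0.0938 to 0.103 CPM, named for being the only one), or 0.68% against 9.31% of all silent genes. None reached 1 CPM, a level that 1.24% of all silent genes reached. Summed over the 150 untested genes, the level was 1.22 ± 0.321 CPM in controls and 1.26 ± 0.185 CPM in mutants. Among the 30 untested genes with counts in both genotypes, 16 had the higher mean in the mutant and 14 in the control.

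Gr93a, in flies part of a caffeine receptor, illustrates how the low values scattered and was chosen after its values were seen. Its counts were 1, 1 and 5 in the control libraries and 13, 3, 6, 5 and 0 counts in the mutant libraries. Mutant library 1 held 13 of the 27 mutant counts and mutant library 5 held none, so the groups overlapped.

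The carbon dioxide receptor and the olfactory co-receptor gave no gain. Or83b (Orco) and Gr21a had no count in any library, which over all 8 libraries allowed a level of up to 0.00655 CPM. Gr63a had 2, 2 and 3 counts in the control libraries and 4, 0, 0, 0 and 2 counts in the mutant libraries. Its counts thus appeared in every control library and in 2 of 5 mutant libraries, too few to be tested.

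Among the 16 tested genes, Gr94a rose and Gr61a, Obp56a and Obp99a fell (edgeR quasi-likelihood test, Benjamini-Hochberg adjusted p under 0.05 over all tested genes). That is 1 higher against 16.9% of all tested genes called higher, and 3 lower against 17.5% called lower. Both directions together made up 34.4% of the 9076 genes tested. The same 4 genes were called without the filter, where 72 sensory genes entered the fit and 23.2% of all genes were called, and by DESeq2, with 27.9% called. The median log2 fold change was −0.07 over the 16 tested genes and 0.01 over all tested genes. In the fit without the filter it was 0.30 over the 72 sensory genes and 0.03 over all genes, with 43 of the 72 positive, and most of these values rested on a few counts. The 4 called genes were also the tested sensory genes whose libraries did not overlap between genotypes, a pattern seen in 38.9% of all tested genes.

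**Figure D2:**
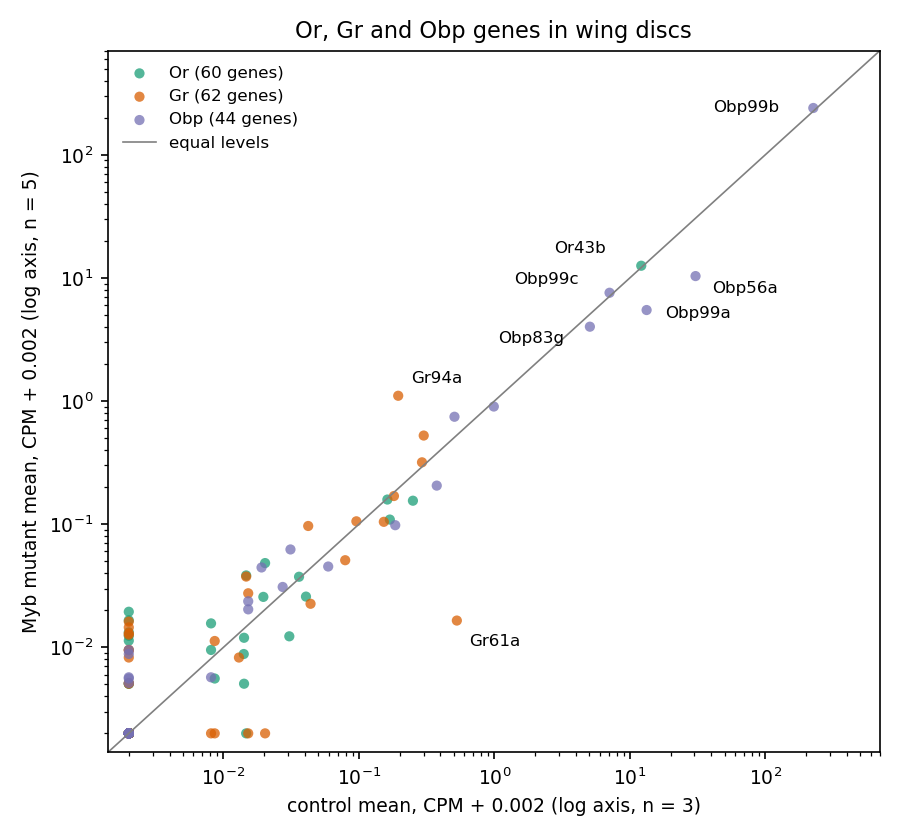
Mean level of each of the 166 genes in the control (horizontal axis, n = 3) and in the Myb mutant (vertical axis, n = 5), in CPM with 0.002 added so that genes at 0 appear, both axes logarithmic. Points are coloured by family and the line marks equal levels. Gr94a lies above the line and Gr61a, Obp56a and Obp99a lie below it, while the genes at the left edge had no control count and none of them exceeded 5 mutant counts.

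Gr94a was the only sensory gene that gained counts past the test. It is a gustatory receptor gene on chromosome arm 3R (FBgn0041225, 23051689 to 23052903 on the plus strand in BDGP6). The counts were 12, 6 and 14 in the control libraries and 52, 72, 78, 70 and 47 in the mutant libraries. In CPM these were 0.238, 0.110 and 0.231 against 0.930, 1.35, 1.19, 1.30 and 0.735. Every mutant library lay above every control library, and the lowest mutant value was that of library 5. The mean went from 0.193 to 1.10 ± 0.262 CPM, a log2 fold change of 2.50 ± 0.34 (SE), or 5.65-fold, with an edgeR adjusted p of 0.000748. Gr94a was thus not silent in the control but lay at a low level in all control libraries. It had 10 counts or more in 2 control libraries and in 5 mutant libraries. Its control libraries alone would not have passed it through the filter. In libraries 1 to 3 of each genotype, with the replicate number as a block, its log2 fold change was 2.59 (edgeR adjusted p = 0.0244). In the same libraries without the block it was 2.57 (edgeR adjusted p = 0.00419).

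Gr94a lies within the span of p53, the tumour suppressor gene, on the opposite strand and without a shared exon. p53 was at 16.7 CPM in control libraries and 15.8 CPM in mutant libraries (log2 fold change −0.08, edgeR adjusted p = 0.328), so the gene that surrounds Gr94a was not called. The nearest gene at higher coordinates, CG17119 (Ctns, the cystinosin gene of lysosomal cystine export), lies 1506 bases away on the minus strand and was also higher. It had 6, 2 and 9 counts in the control libraries and 24, 27, 29, 36 and 30 counts in the mutant libraries. Ctns thus passed the filter only through its mutant libraries. Here too the groups did not overlap, and the level went from 0.101 to 0.503 CPM, with a log2 fold change of 2.28 ± 0.41 and an edgeR adjusted p of 0.00339. When libraries were summed by described replicate, a fit of 1 control against 2 mutant samples, its log2 fold change was 2.19 and the call was lost (edgeR adjusted p = 0.0798). With the replicate number as a block it was 2.21 with an edgeR adjusted p of 0.0625. Beyond Ctns, sav (0.14), CG6697 (Ublcp1, −0.12) and CG17111 (1.04) did not pass the test, with edgeR adjusted p of 0.0795, 0.0519 and 0.059. On the lower side, beyond p53, CG17121 rose by 0.30 on the log2 scale (edgeR adjusted p = 0.0106). Genes nearby with too few counts to be tested went both ways. Cow went from 0.035 to 0.165 CPM and lmd from 0.024 to 0.085 CPM, whereas CG17110 went from 0.149 to 0.073 CPM and CG13837 from 0.081 to 0.041 CPM.

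Gr61a had the largest change of the 16 tested genes and fell to near silence. It belongs to the clade of sugar receptors and responds to glucose, and lies on 3L (FBgn0035167, 841451 to 843701, plus strand, BDGP6). The counts were 28, 37 and 21 in the control libraries and 3, 1, 0, 0 and 0 in the mutant libraries. Control levels were 0.556, 0.677 and 0.347 CPM, and mutant levels were 0.0537, 0.0188, 0, 0 and 0 CPM. The groups were far apart, and 3 of the 4 mutant counts came from library 1. The fitted log2 fold change was −5.04 ± 0.75, or 33.0-fold lower, with an edgeR adjusted p of 0.00117. Without mutant library 1 the fitted change was −6.36. Gr61a passed the filter only through its control libraries, and its call was lost in the summed fit with its single control sample (log2 fold change −4.67, edgeR adjusted p = 0.113). Hemocyte markers fell by factors from 1.025 (vkg) to 40.6 (eater), with Sr-CI at 13.5, Pxn at 18.8 and Hml at 33.5. The part of hemocytes in the Gr61a level was not tested.

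As with Gr94a, a neighbour of Gr61a changed in the same direction. CG13889 (Cep290, a gene of the ciliary transition zone) starts 224 bases downstream on the same strand. It had 27, 26 and 25 counts in the control libraries and 6, 0, 2, 0 and 5 counts in the mutant libraries. Cep290 thus passed the filter only through its control libraries. Its level fell from 0.475 to 0.0432 CPM in groups that did not overlap, with a log2 fold change of −3.36 ± 0.72 and an edgeR adjusted p of 0.00753. On the other side, 90 bases away on the minus strand, CG13902 (JMJD5) fell from 35.0 to 30.05 CPM, by 0.22 on the log2 scale (edgeR adjusted p = 0.0136). Both neighbours lost their call in the summed fit, Cep290 at a log2 fold change of −2.96 (edgeR adjusted p = 0.127) and JMJD5 at −0.28 (0.107). The same happened with the replicate block, a fit that took only libraries 1 to 3 of each genotype. There the log2 fold change was −3.46 for Cep290 (edgeR adjusted p = 0.0529) and −0.25 for JMJD5 (0.0515). The next gene, CG13890 (Dci), had a log2 fold change of −0.06 and an edgeR adjusted p of 0.413, and CG13907, the sixth gene on that side, was higher at 0.86 (0.00512). Whether the receptor and its neighbour share transcripts was not tested.

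**Figure D3:**
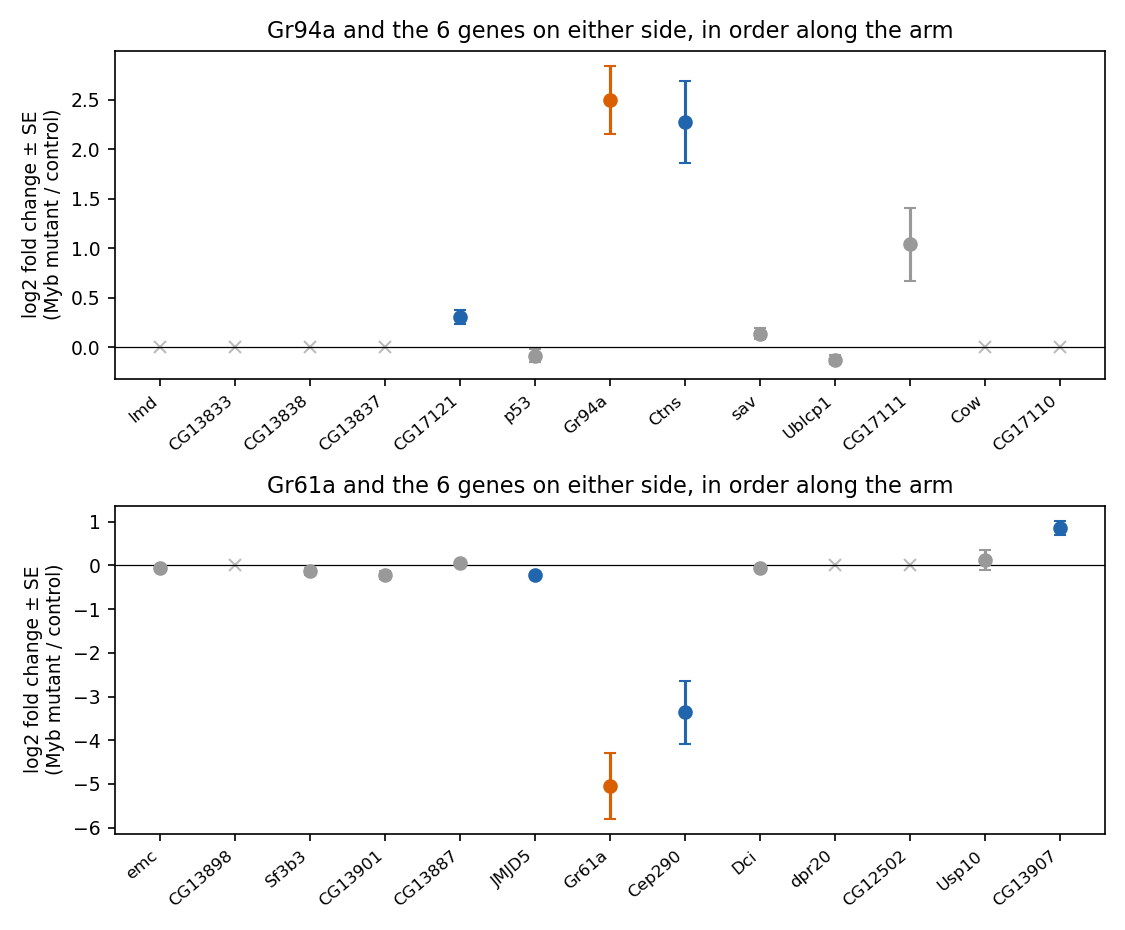
Log2 fold change (Myb mutant over control) with SE (vertical axis) for Gr94a (upper panel) and Gr61a (lower panel) in orange and the 6 annotated genes on either side, in their order along the arm. Blue points were called, grey points were tested and not called, and grey crosses at 0 mark genes with too few counts to be tested. The position of the crosses is not a measured value. Next to Gr94a (2.50) lies Ctns (2.28), and next to Gr61a (−5.04) lies Cep290 (−3.36). The other tested neighbours lie between −0.23 and 0.30, except CG17111 (1.04) and CG13907 (0.86).

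Obp56a and Obp99a, 2 odorant-binding genes expressed in all libraries, were lower in the mutant. Obp56a lies on 2R in a cluster of Obp genes (FBgn0034468, 19697723 to 19698508, plus strand, BDGP6). It had 26.9, 38.1 and 26.7 CPM in the control libraries and 8.05, 10.4, 9.80, 11.9 and 11.6 CPM in the mutant libraries. The highest mutant library was well below the lowest control library, and mutant library 1 was the lowest. The mean fell from 30.6 to 10.35 ± 1.55 CPM, a log2 fold change of −1.56 ± 0.15, or 2.95-fold lower, with an edgeR adjusted p of 9.96e-05. No other gene of its cluster was called. CG15126 on one side had no count, Obp56b on the other side had 1 count, and Obp56d, the only other tested gene of the cluster, had a log2 fold change of −0.13 ± 0.66 with an edgeR adjusted p of 0.899.

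Obp99a lies on 3R (FBgn0039678, 29671657 to 29672334, plus strand, BDGP6). Its levels were 12.2, 16.5 and 11.25 CPM in the control libraries and 4.45, 4.38, 6.06, 6.51 and 6.02 CPM in the mutant libraries. As for Obp56a, control library 2 was highest and mutant library 4 was the highest mutant library, and the groups did not overlap. The mean fell from 13.3 to 5.48 ± 0.994 CPM, a log2 fold change of −1.28 ± 0.17, or 2.42-fold lower, with an edgeR adjusted p of 0.000671. Of its neighbours, ppk30, a gene of the pickpocket family of sodium channels, had 2 counts in the control and 3 in the mutant, and ppk19 of the same family, 121 bases away, had a log2 fold change of −0.21 with an edgeR adjusted p of 0.138. Without control library 1 the adjusted p of ppk19 was 0.0247. The 6 hemocyte markers given above fell further than either gene, whereas Cg25C (1.20-fold), crq (1.10-fold) and vkg (1.025-fold) fell less. The part of hemocytes in the lower Obp56a and Obp99a levels was not tested.

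**Figure D4:**
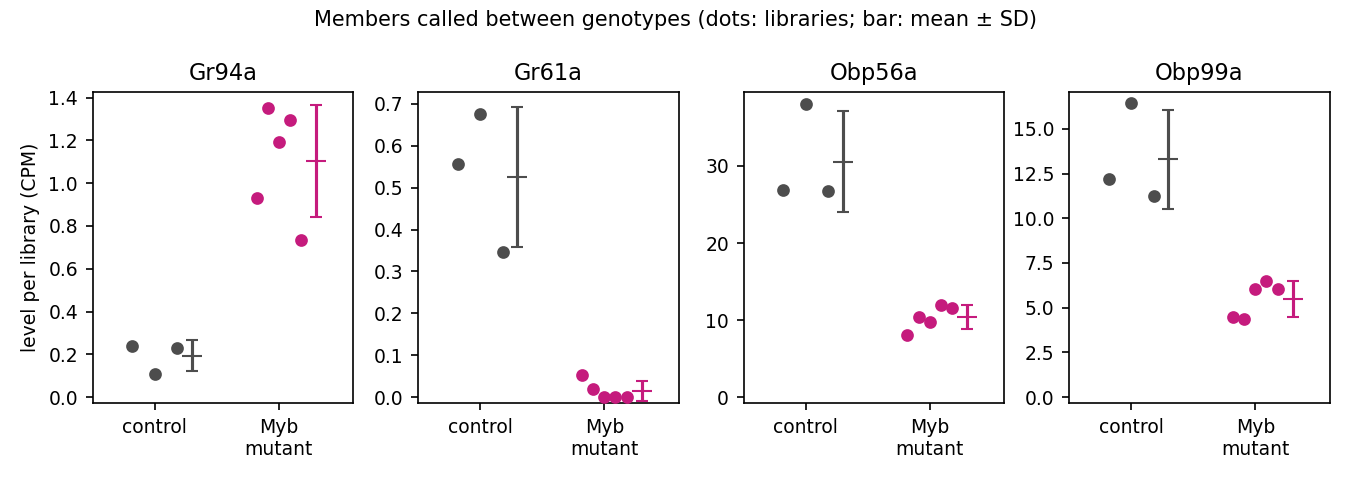
Level of Gr94a, Gr61a, Obp56a and Obp99a in each library in CPM (vertical axes, each from 0), for 3 control and 5 Myb mutant libraries, with the mean and SD beside the points. In each panel the genotypes do not overlap, with Gr94a at 0.735 CPM or more in the mutant and at most 0.238 CPM in the control.

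Obp99b, known from fat cells of the adult head, varied widely between libraries of one genotype. Its counts made up 80.5% of the 129394 counts of all 166 genes. The level was 456, 209 and 13.7 CPM in the control libraries and 448, 48.2, 206, 401 and 97.5 CPM in the mutant libraries. The highest and the lowest library were both controls, 33.3-fold apart, so the groups overlapped fully and the log2 fold change was 0.09 ± 0.97 (edgeR adjusted p = 0.955). Obp99c followed nearly the same order at 15.3, 5.54 and 0.396 CPM (control) and 13.3, 2.20, 6.22, 13.1 and 2.99 CPM (mutant). Its log2 fold change was 0.10 ± 0.94 with an edgeR adjusted p of 0.947. Without control library 3 the log2 fold changes were −0.47 for Obp99b and −0.46 for Obp99c.

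The level of both genes moved with the summed level of 7 fat body markers, the larval serum and fat body proteins, which differed 69.8-fold between libraries. Obp99b stood at 8.48% to 12.6% of that sum in 7 of the 8 libraries and at 18.1% in control library 3, where the sum was lowest at 75.6 CPM. Obp99c stood at 0.253% to 0.524% of it. The ratio thus varied far less than the level. Whether the reads of both genes came from fat body in the samples was not tested. The summed Obp level, 284 ± 230 CPM in controls and 270 ± 183 CPM in mutants, was set by Obp99b and says little of the other Obp genes. For Obp83ef, another low odorant-binding gene, the level was 0.993, 0.128 and 0 CPM in control libraries and 0.215, 0.0940, 0.107, 0.556 and 0.0469 CPM in mutant libraries. Control library 1 was the highest, and the log2 fold change was −0.86 ± 1.14 (edgeR adjusted p = 0.591). Its exons overlap those of Obp83cd on the opposite strand by 92 bases.

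**Figure D5:**
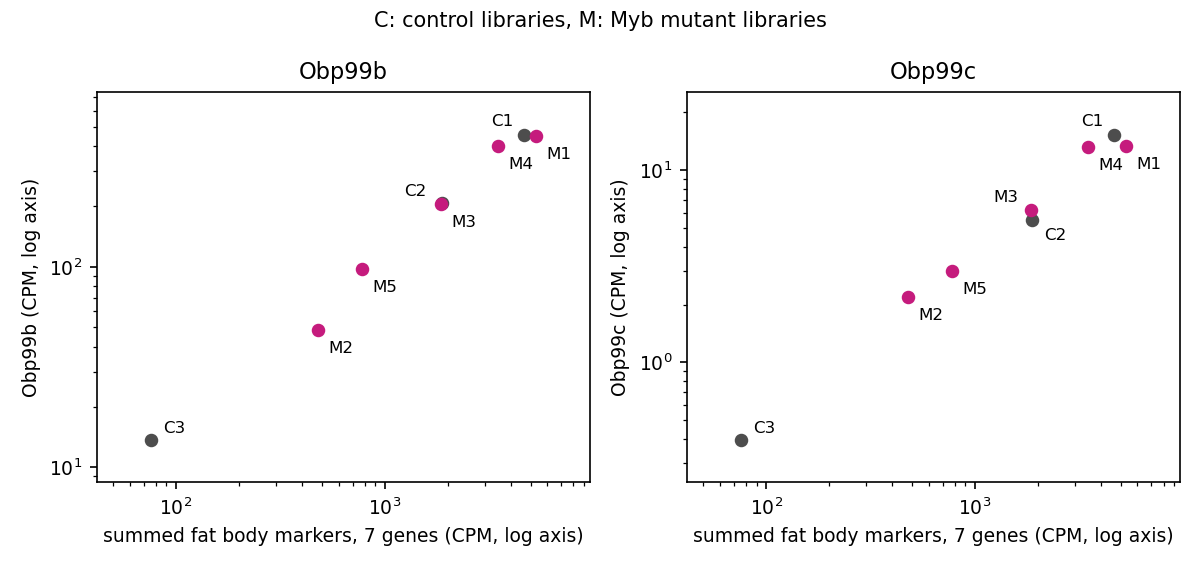
Level of Obp99b (left) and Obp99c (right) against the summed level of 7 fat body markers, both in CPM on logarithmic axes, one point per library (C1 to C3 control, M1 to M5 Myb mutant). Control library 3 is lowest on both axes with 13.7 CPM of Obp99b at 75.6 CPM of markers, and the libraries of both genotypes lie along one band.

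Obp56a and Obp99a did not follow the fat body sum. Control libraries 1 and 3, at 4650 and 75.6 CPM of fat body markers, had nearly equal Obp56a levels of 26.9 and 26.7 CPM and Obp99a levels of 12.2 and 11.25 CPM. The other odorant-binding genes did not pass the test. Obp83g had 4.23, 6.80 and 4.18 CPM (control) and 3.47, 5.15, 3.29, 4.11 and 4.05 CPM (mutant), with overlapping groups and a log2 fold change of −0.34 ± 0.21 (edgeR adjusted p = 0.237). Obp56d lay between 0.439 and 1.77 CPM in control libraries and between 0.306 and 1.77 CPM in mutant libraries, so that each genotype spanned nearly the same range. Obp44a had 0.198, 0.988 and 0.330 CPM in controls and 0.787, 1.20, 0.827, 0.463 and 0.438 CPM in mutants. Control library 2 lay far above the other control libraries, and the log2 fold change of 0.55 ± 0.54 (edgeR adjusted p = 0.463) rose to 1.47 without that library, with an edgeR adjusted p of 0.0483. Exon bases shared with Pabp2 on the opposite strand made up 19.1% of Obp44a.

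Of the odorant receptors only Or43b, an antennal receptor on 2R (FBgn0026393), had a substantial count. It had 574, 727 and 711 counts in the control libraries and 710, 639, 861, 644 and 829 in the mutant libraries, and its log2 fold change was 0.05 ± 0.07 (edgeR adjusted p = 0.600). The Or family sum, 12.94 ± 1.06 CPM in control libraries and 13.26 ± 0.629 CPM in mutant libraries, held 12.1 and 12.6 CPM of this gene. However, 575 of its exon bases, or 40.7%, overlap lin19 (Cul1), a cullin of ubiquitin ligases transcribed from the opposite strand at 413 CPM (control) and 399 CPM (mutant). The counts of Or43b were 2.73% to 3.38% of the Cul1 counts in all 8 libraries. Since strand use in counting was not stated, reads of Or43b and Cul1 may not have been told apart. The same holds for Or83a, all of whose exon bases lie opposite CG1172, and for Obp93a, which shares 83.2% with CG5793.

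The other tested receptors did not pass the test. Or2a and Or85f, both olfactory receptors, had log2 fold changes of −0.04 ± 0.41 (edgeR adjusted p = 0.952) and −0.70 ± 0.34 (0.151). For Or85f the control libraries had 0.139, 0.293 and 0.314 CPM and the mutant libraries 0.161, 0.150, 0.184, 0.130 and 0.141 CPM, with control library 1 among the mutant values. The bitter receptor gene Gr66a (0.11 ± 0.32, edgeR adjusted p = 0.812) and the fructose receptor gene Gr43a (−0.10 ± 0.31, 0.822) overlapped between genotypes. Gr39a, a gene with several alternative first exons that has been studied in courtship, had 0.338, 0.146 and 0.413 CPM in controls and 0.536, 0.507, 0.505, 0.704 and 0.360 CPM in mutants. All but mutant library 5 lay above the highest control library, and the log2 fold change of 0.80 ± 0.37 did not pass the test (edgeR adjusted p = 0.126). The summed Gr level was 1.98 ± 0.178 CPM in control libraries and 2.65 ± 0.438 CPM in mutant libraries, to which Gr94a contributed 0.193 and 1.10 CPM.

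By position, 18 of the sensory genes lay on X, 29 on 2L, 58 on 2R, 23 on 3L, 38 on 3R and 0 on chromosome 4, and 77 lay next to another of them. Of the 16 tested genes only Or2a lay on X, the chromosome that carries the deletion. Over all tested genes 34.4% were called, 16.9% higher and 17.5% lower. Among the marker lists, none of 8 tested proneural and sensory precursor genes and none of 4 tested neuronal genes was called in either direction. Of 7 tested eye and antennal disc genes 2 were higher, ey (0.490 to 1.32 CPM) and dan (0.439 to 1.04 CPM), and 3 were lower, eya (21.8 to 15.1 CPM), so (12.65 to 9.66 CPM) and ss (34.5 to 30.6 CPM). Of 12 wing disc genes 2 were higher and 1 was lower, and of 6 tracheal genes 1 was higher and 2 were lower. In the same edgeR fit, summed salivary gland markers spanned 4.74 to 19.7 CPM in control and 0.63 to 228 CPM in mutant libraries with none of 7 called, and of 6 tested glial genes 3 were higher and 1 was lower.

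A list of 123 other chemosensory genes, the ionotropic receptors (Ir), pickpocket channels, further odorant-binding genes and related factors, was read in the same way for comparison. Of 29 tested, 6 were higher and 1 was lower by edgeR, beside 16.9% higher and 17.5% lower over all tested genes, with a median log2 fold change of 0.11. Of its 57 genes with no control count 14 (24.6%, against 37.2% over all genes) had a mutant count. Among the 57, 1 was called higher (1.75%, against 0.425% of all genes with no control count). That gene, CG17152 (Ir68b), reached 9.85 ± 0.517 CPM in the mutant, with 486 to 666 counts in each mutant library. CG8533, 1 of 2 entries of the table that fall in Ir76a of the newer annotation, went from 0.265 to 16.0 ± 1.70 CPM. Its log2 fold change was 5.90 with an edgeR adjusted p of 8.44e-07. The second entry, CG34257, went from 0.420 to 0.681 CPM and was not called (log2 fold change 0.69, edgeR adjusted p = 0.0739). The other rises among the largest were those of Eip93F and Snmp2. Eip93F, an ecdysone-induced transcription factor, went from 0.0474 to 0.240 CPM, and Snmp2, a membrane protein of the CD36 family, from 0.570 to 0.922 CPM. Control libraries alone would not have passed Ir68b, CG8533 or Eip93F through the filter. The fall was that of the antennal protein gene Os-C, with a log2 fold change of −1.05 and an edgeR adjusted p of 0.0110. Against these values, no Or, Gr or Obp gene with no control count exceeded 5 mutant counts, and whether the lists differ was not tested. With libraries summed by described replicate the calls of Eip93F (edgeR adjusted p = 0.183), Snmp2 (0.221) and Os-C (0.0984) were lost.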

How the data were processed

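Polyadenylated RNA of 3 control and 5 Myb mutant wing disc libraries was sequenced. Per the labels and methods, the authors trimmed reads with Trimmomatic (version 0.22 per the labels), aligned them with Bowtie2 version 2.1.0 to exons of a 2008 FlyBase gene set (release 5), and used eXpress for unique counts per exon, added up over the exons of each gene. The deposited values are raw counts. The authors' log2 fold change, p-value and adjusted p columns (DESeq2) were not used. The members and gene lists were chosen with earlier results of these data known.

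The entry pooling mitochondrial reads (0.574% to 1.34% of counts) was left out, which left 14299 genes. Counts were fitted with edgeR 4.0.16 in R 4.3.3 (filterByExpr on genotype, TMM, quasi-likelihood test, Benjamini-Hochberg over 9076 genes, threshold 0.05) with genotype as the only term. The SE was derived as |log2 fold change| / √F. Names and positions came from Ensembl release 115 (BDGP6), not the alignment build: 163 of the 166 genes matched by identifier and 3 by symbol. No sequence was used here.

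Named were all called genes and their neighbours, the 8 with the highest mean level, Orco, Gr21a, Gr63a, and the called genes of the other chemosensory list with the 4 largest rises and falls. The remaining tested genes, and those stated as such, were named after their values were seen. Alternatives were RLE scaling, other filters, DESeq2 1.42.0, summed replicates, a replicate block, leaving out each library and, added after seeing the data, libraries 1 to 3 of each genotype without the block. The fit was tried on simulated counts of this comparison (9076 genes). There edgeR found 50% of the genes altered 1.5-fold, 92% at 2-fold, 94% at 4-fold and 94% at 10-fold, with 4 false calls. DESeq2 made 33 false calls on the same counts. The simulation held only genes that passed the filter and took libraries as independent, so it says nothing of the 150 untested sensory genes.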

Additional observations from a re-analysis of the deposited data

How the results depend on the processing

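The sensory genes called higher numbered 1 under RLE scaling, without a filter, with DESeq2 and with summed replicates. With a minimum mean of 1 CPM, under which 6 sensory genes were tested, 0 were called higher and 2 lower (edgeR), because Gr94a and Gr61a were not tested. Leaving out 1 library in turn gave 1 to 2 called higher, the second being Obp44a without control library 2, and 3 called lower each time. Silent genes called higher numbered 1 (Gr94a) when silence meant a control mean under 0.5 CPM. With libraries summed by described replicate 2 were called lower, since Gr61a was lost, and in that fit Obp56d (0.34) and Or2a (0.047) changed sign on the log2 scale. This fit had 1 control sample, assumed to vary like the mutant samples. Leaving out 1 library in turn also turned the sign of 6 genes that were not called, with log2 fold changes from −0.052 to 0.41 for Gr66a, −0.52 to 0.58 for Obp56d, −1.46 to 1.66 for Obp83ef, −0.47 to 1.11 for Obp99b, −0.46 to 1.35 for Obp99c and −0.35 to 0.24 for Or2a. Gr94a stayed between 2.21 and 2.67, Obp56a between −1.65 and −1.38 and Obp99a between −1.39 and −1.10. The cause of these shifts was not tested.

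The libraries shared replicate numbers, and the deviations of same-numbered libraries correlated at r = 0.356, −0.118 and −0.029. These values lay within the range of −0.393 to 0.433 of unlike-numbered libraries, so the numbers were not taken as pairs. With the replicate block over libraries 1 to 3, 1 sensory gene was higher and 3 were lower, while over all genes 744 were higher and 651 lower, against 1027 and 1031 for the same libraries without the block and 1534 and 1587 over all libraries. The summed replicates gave 744 higher and 766 lower. The control depth limits what can be said of silent genes to levels above about 0.0181 CPM.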
